A study of Drosophila melanogaster with 12 samples.

Results

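The vitelline membrane is the inner layer of the *Drosophila* eggshell, and 9 genes that encode its proteins or proteins secreted with them are described here: *Vm26Aa*, *Vm26Ab*, *Vm26Ac*, *Vm32E*, *Vm34Ca*, *Vml*, *psd*, *dec-1* and *Fcp3C*. The genes were chosen by name and not by a cutoff on a measured value, although earlier results of these data were known. A search by gene symbol found 8 of them. The ninth, *dec-1*, carries a calendar date in place of its symbol, as 5 entries of the table do, and was found by its FlyBase identifier, FBgn0000427. Together they make up 9 of the 14303 gene entries.

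RNA was sequenced from whole ovaries of females aged 4 days. *D1* encodes a chromosomal protein that binds satellite DNA. The *D1* mutant females carried the *D1* Kyoto (LL03310) insertion allele over the deficiency Bsc666, and the control females carried the same insertion allele over the TM6C balancer, so both genotypes have that allele. For RNA-seq, both genotypes were also in a *chk2* mutant background, as the study describes. *chk2* encodes a checkpoint kinase. There were 3 RNA-seq libraries of D1 mutant ovaries and 3 of control ovaries, each from pooled ovaries, with about 5 ovaries per genotype in the labels and about 5 pairs per sample in the study's methods. The small RNA libraries, also 3 each and labelled with the same *D1* alleles, were not analysed here. The study names the *chk2* background for the RNA-seq ovaries only. The labels call the material germline cells, although the ovaries were dissected whole and hold the somatic follicle cells too.

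The values below are the authors' mean of normalized counts over all 6 RNA-seq libraries. This mean pools D1 mutant and control ovaries, so it is the level of neither genotype, and no difference between the genotypes is given here. It carries no error and no spread between libraries. The depth of the single libraries is unknown from the table used here. In a whole ovary, fewer follicle cells and less RNA per cell cannot be told apart.

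Follicle cells, the somatic epithelium around each oocyte, secrete the vitelline membrane in the middle stages of oogenesis and lay the chorion, the outer eggshell, over it later. The Vm proteins are small, secreted and rich in alanine and proline, and they are cross-linked into a continuous layer. They share a short conserved stretch, the VM domain, in which cysteines stand at fixed distances. Other eggshell proteins assemble the layer or anchor signals for the axes of the embryo in it.

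The conserved stretch is shown first because it is what ties most of these genes together. The spacing searched for, cysteine, 7 residues, cysteine, 8 residues, cysteine, is the one known from the VM domain. Its presence in Vm genes was therefore fixed by that choice and is a description, not independent support. In the translated coding sequences, 6 of the 9 genes held it. The 6 coding stretches of 18 codons are given here 5′ to 3′ from the RefSeq copy of the Release 6 genome, with the cysteine codons in capitals. They lie at chr2L:5959978-5960031 (minus) for *Vm26Aa*, chr2L:13411310-13411363 (minus) for *Vm34Ca*, chr2L:5957432-5957485 (plus) for *Vm26Ab*, chr2L:11171458-11171511 (minus) for *Vm32E*, chr2L:5958064-5958117 (minus) for *Vm26Ac* and chrX:2277635-2277688 (plus) for *Vml*.
*Vm26Aa*: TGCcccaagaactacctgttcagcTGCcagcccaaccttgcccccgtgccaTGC
*Vm34Ca*: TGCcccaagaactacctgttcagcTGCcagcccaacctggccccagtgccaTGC
*Vm26Ab*: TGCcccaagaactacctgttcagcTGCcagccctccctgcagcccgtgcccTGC
*Vm32E*: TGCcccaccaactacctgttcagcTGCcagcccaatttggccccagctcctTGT
*Vm26Ac*: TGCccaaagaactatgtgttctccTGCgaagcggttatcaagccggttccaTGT
*Vml*: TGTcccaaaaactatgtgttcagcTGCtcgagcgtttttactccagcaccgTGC
*psd*, *dec-1* and *Fcp3C* did not hold this spacing in their longest coding sequence. Among all 13968 translated protein-coding genes, 241 (1.73%) hold it, and among the 3164 proteins of at most 200 residues 44 (1.39%) do. Vm genes are counted in both shares. Of the 13968 translations, 13518 start with methionine and hold no stop, those of the 9 genes included, and the rest were kept in the 13968.

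The stretches of *Vm26Aa* and *Vm34Ca* were the most alike, with 52 of 54 bases and 18 of 18 residues identical, although the genes lie in different places on the chromosome arm 2L. *Vm26Ab* shared 47 bases and 16 residues with each of them. *Vm32E* shared 46 bases with *Vm34Ca* and 44 with *Vm26Aa*. *Vm26Ac* and *Vml* stood apart at the level of bases, with 33 to 35 bases in common with the other genes for *Vm26Ac* and 34 to 37 for *Vml*. Across the 15 pairs the identity of the stretch ran between 10 and 18 of 18 residues. The proteins were also aligned end to end with free end gaps, and identical residues were counted as a share of the shorter protein. This share ran between 16.4% and 63%, and it is not identity over the full length of the longer protein. The residue was the same in all 6 genes at 10 of the 18 codons, the 3 cysteines included.

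**Figure D1:**
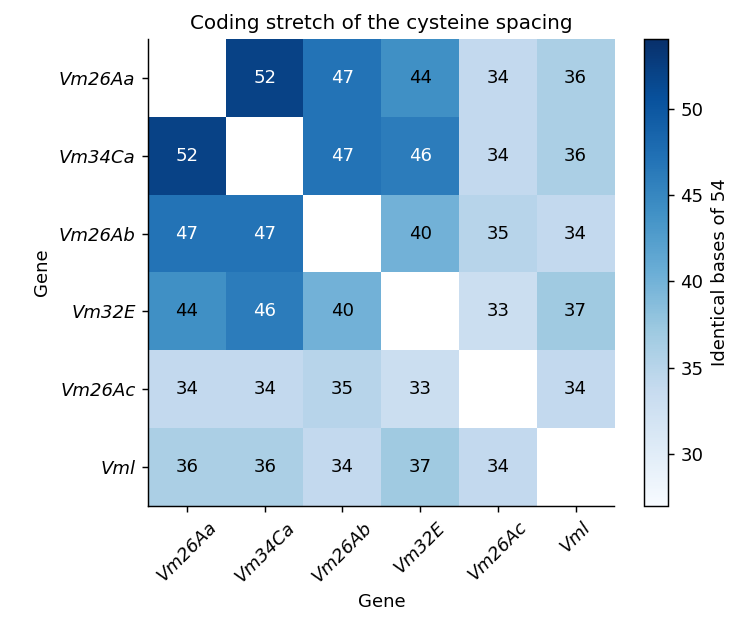
Identical bases, of 54, between the coding stretches that hold the cysteine spacing, for each pair of the 6 genes; darker squares have more identical bases. *Vm26Aa*, *Vm34Ca*, *Vm26Ab* and *Vm32E* share 40 to 52 bases with each other, and *Vm26Ac* and *Vml* share 33 to 37 with any other gene.

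The likeness of the sequences bears on how reads can be assigned. Runs of 31 bases were compared between the transcripts of all genes. *Vm26Aa* shared 8 of its 715 runs with other genes, all 8 with *Vm34Ca* and 3 of them also with *Vm26Ab*. *Vm34Ca* shared 8 of 461 runs and *Vm26Ab* 3 of 606. *Vm26Ac*, *Vm32E*, *Vml*, *psd* and *Fcp3C* shared none. *dec-1* shared the most, 265 of 5591 runs, all with the antisense RNA gene asRNA:CR43615 that overlaps it. Reads were 150 bases from each end of a fragment, longer than these runs.

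All 9 genes lay above the median gene entry, both in mean normalized counts (median 360) and in counts per kb of the longest annotated transcript (median 227 per kb). Together they took 97769 mean normalized counts, 0.212% of the 46044734 summed over all named entries. More of these counts came from *dec-1* than from the other genes combined, at 55.8%, while per kb the highest gene was *Vm32E*. The entries with the highest means in the table were *COX1* at 414951, *eEF2* at 413565 and snRNA:7SK at 393543 normalized counts.

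*Vm32E* encodes a small vitelline membrane protein that is made late and is also found in the endochorion. Its mean was 19365 normalized counts, which for a transcript of 499 bases is 38807 per kb, rank 122 of the 14241 gene entries with an annotated transcript. It made up 52% of the summed level per kb of the 9 genes and 19.8% of their counts. Per kb it was 1.11 times *Yp3*, the lowest of the yolk protein genes, but in counts *Yp3* was higher, at 65167. The gene lies on 2L at 11171167 to 11171665, on the minus strand, within an intron of *Ca-beta*, a calcium channel subunit gene on the same strand. Of 9 annotated transcripts of *Ca-beta*, 1 spans *Vm32E* and 0 overlap it with an exon. The mean given for *Ca-beta* was 132 normalized counts. It comes from an entry under another identifier, because that of the annotated gene, FBgn0287724, is not listed among the entries.

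*dec-1* (defective chorion 1) encodes alternatively spliced proproteins that are cleaved and needed for an ordered eggshell. Its mean was the highest in counts, 54516 (rank 125 of 14303), but its longest transcript is 5696 bases, so the level was 9571 per kb (rank 393 of 14241). *dec-1* was thus 2.82 times *Vm32E* in counts and 0.247 times *Vm32E* per kb. *dec-1* lies on X at 7867161 to 7873222, on the minus strand, with 6 annotated transcripts of 4 to 5 exons. An antisense RNA gene, asRNA:CR43615, overlaps it on the opposite strand over 396 bases and had a mean of 3111 normalized counts. Whether the counting used strand is not given in the sources used here, so reads in this overlap cannot be told apart.

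The next levels per kb belonged to *Vm26Aa*, *Vm26Ac* and *Vm34Ca*, which encode structural proteins of the membrane. *Vm26Aa* had 5790 normalized counts, 7772 per kb, which places it at rank 465. *Vm26Ac* had 3173 counts and 5061 per kb. *Vm34Ca*, on 2L at 13411141 to 13411631 on the minus strand, had 1874 counts and 3817 per kb. *Vm26Ac* and *Vm34Ca* therefore rank higher per kb, at 768 and 1087, than in counts, at 3076 and 4525. The transcripts of these genes are short, at 627 and 491 bases.

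*Fcp3C* (Follicle cell protein 3C) and *Vml* are on X. *Fcp3C*, at 3173376 to 3174474 on the minus strand, had 3461 counts and 3594 per kb. *Vml* encodes a Vm-like protein known as a substrate of the sulfotransferase Pipe in dorsoventral patterning. It lies at 2275822 to 2277781 on the plus strand and had 6849 counts and 3494 per kb. Per kb, *Vm34Ca*, *Fcp3C* and *Vml* lay close together, within 3494 to 3817.

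*Vm26Ab* and *psd* were the lowest of the 9 per kb. *Vm26Ab*, a structural protein of the membrane, had 832 counts and 1309 per kb (rank 3582). *psd* (palisade), which acts in the assembly of the membrane, had 1908 counts and 1237 per kb (rank 3739). *Vm32E* was 29.7 times *Vm26Ab* per kb. Without values per library, neighbours in this order cannot be set against the spread between libraries, and the order is a description.

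**Figure D2:**
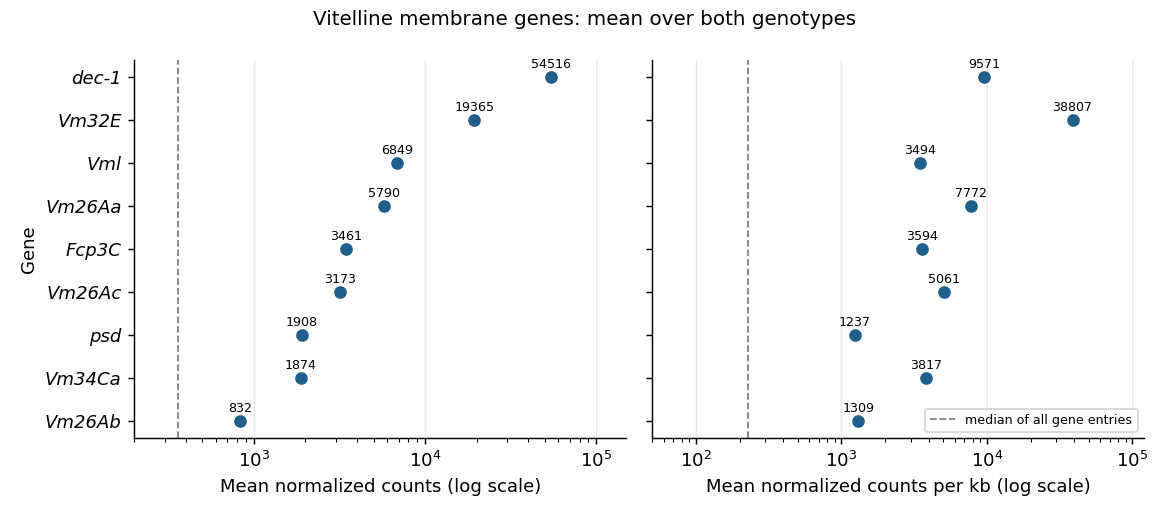
The authors' mean of normalized counts over D1 mutant and control ovaries for each gene (left, log scale) and the same mean per kb of the longest annotated transcript (right, log scale); the dashed line is the median of all gene entries and no error is known. All 9 genes lie right of the line, *dec-1* is highest in counts and *Vm32E* per kb.

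Against the other eggshell lists the genes held a middle place. Their levels summed to 74662 per kb, with a median of 3817, against 961529 per kb and a median of 93057 for 9 chorion protein genes. The sum of the 9 genes was 0.0777 times that of the chorion genes per kb and 0.1414 times in counts. The chorion genes, which are amplified in late follicle cells, reached 421862 per kb in *Cp15* (rank 3), and 6 of the 9 were above *Vm32E*. The other 3, *Cp7Fa*, *Cp7Fb* and *Cp7Fc*, had 10545, 5732 and 2283 per kb and lay among the vitelline membrane genes.

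Of the late eggshell list, *yellow-g*, *yellow-g2* and *Femcoat* had 13861, 16081 and 11653 per kb, above 8 of the 9 genes. *Pxd*, a peroxidase gene, had 4.15 per kb, and *Muc4B* had 103. The yolk protein genes, which follicle cells also express, had 34886 to 100213 per kb, *Yp3* lowest and *Yp2* highest, so 2 of the 3 were above *Vm32E*, and in counts all 3 were above every one of the 9 genes.

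Genes that assemble the membrane or use it for patterning were lower per kb, but close to the 9 genes in counts. The 10 genes of this list had a median of 711 per kb, and 7 of them were below *psd*, the lowest of the 9 genes. In mean normalized counts their sum was 0.862 times that of the 9 genes, their median was 3171, against 3461 for the 9 genes, and 4 of them were below *Vm26Ab*, the lowest in counts. *clos*, at 31446 counts, was above 8 of the 9 genes. The highest was *clos* (closca) at 5594 per kb, followed by *fs(1)M3* at 3490 and *fs(1)N* at 2393. These 3 encode membrane proteins needed for cross-linking and for the terminal system. *ndl*, an eggshell protease that starts the dorsoventral cascade, had 1099 per kb, and *Cad99C*, a cadherin of the follicle cell microvilli, had 914.

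The genes of the sulfation pathway that acts on Vml lay closer to the median of all genes, 227 per kb. *pip* had 198 per kb, its partner *wbl* 507, the transporter gene *sll* 219 and *Papss*, which makes the sulfate donor, 382. *tsl*, a gene of the terminal system, was the lowest of the list at 160 per kb. *Vml* at 3494 per kb was above each of these 5 genes.

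**Figure D3:**
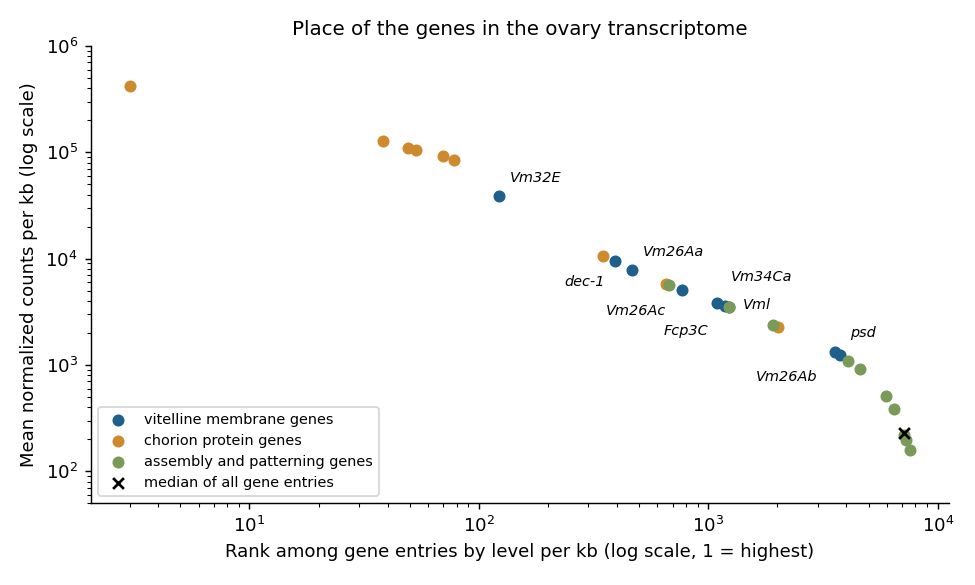
Mean normalized counts per kb against rank among gene entries with an annotated transcript (both log scale) for the vitelline membrane, chorion protein and assembly and patterning genes; the cross is the median of all gene entries. *Vm32E* stands at rank 122 below 6 chorion genes, and *psd* at rank 3739 above 7 assembly and patterning genes.

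Markers of other cells place these levels in the tissue. Germline genes had a median of 2705 per kb, against 3817 for the 9 genes, with *nos* highest at 15548 and *bam* lowest at 1006. In counts the order was reversed, with a germline median of 11348 against 3461. The summed counts were 95687 and 97769. Of the 5 follicle cell markers, *Yp1* had 44191 per kb, whereas *Fas3* and *tj* had 674 and 185 and the region-specific *mirr* and *slbo* had 19.6 and 15.7. The 4 muscle genes of the ovarian sheath had 541 (*Mhc*) to 848 per kb (*wupA*), all below *psd*, while in counts none lay below *Vm26Ab* and *Mhc*, at 3974, was above 5 of the 9 genes. The 8 testis markers had 1.46 (*ProtB*) to 12.9 per kb (*Mst87F*), the 3 fat body markers 2.35 (*Fbp1*) to 11.9 (*Lsp1beta*), and the hemocyte markers *Hml* and *NimC1* 15.2 and 8.04. All 13 of these lay below the median gene, although the series text speaks of testes.

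**Figure D4:**
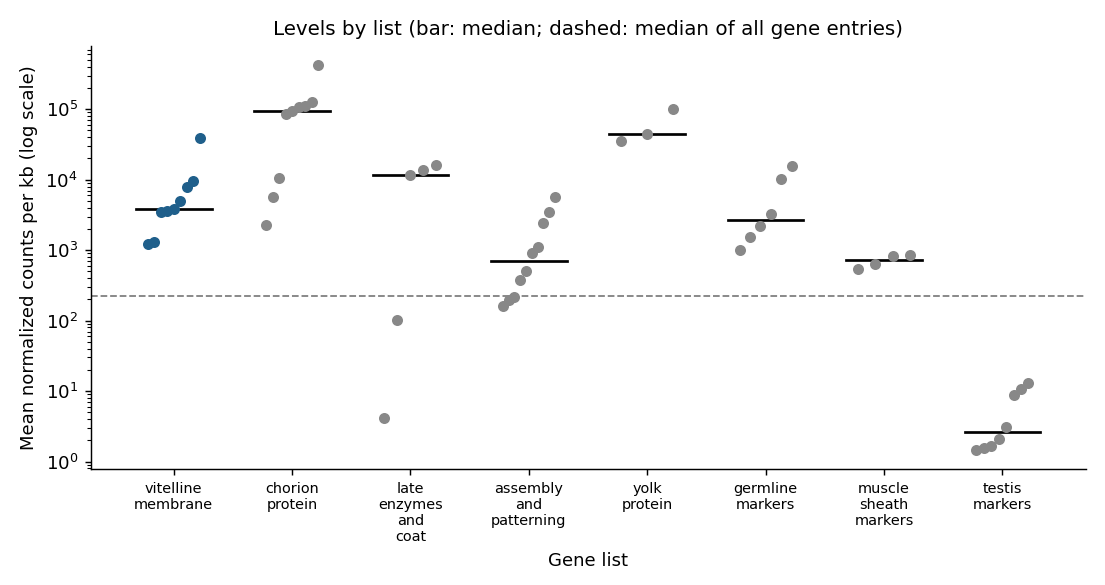
Mean normalized counts per kb (log scale) of each gene, by list, as the authors' mean over D1 mutant and control ovaries; the bar is the median of the list and the dashed line the median of all gene entries. The vitelline membrane genes (blue) run between 1237 and 38807, below most chorion genes and above every muscle and testis marker.

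Of the 9 genes, 4 stand together at cytological position 26A on 2L. *Vm26Ab* (5957004 to 5957639, plus strand), *Vm26Ac* (5958005 to 5958631), *Vm26Aa* (5959596 to 5960340) and *psd* (5963087 to 5964951), the last 3 on the minus strand, span 7948 bases. Between them lie gaps of 365, 964 and 2746 bases with no other annotated gene. Levels per kb in this order were 1309, 5061, 7772 and 1237, so the inner genes were higher than the outer ones. The 4 genes together had 11705 normalized counts, 12% of the counts of the 9.

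Per kb, the genes beside the cluster were lower than any gene in it. *CG13998*, 184 bases before *Vm26Ab*, had 469 per kb, and *CG13999* beyond it had 4.69. *CG13992*, 439 bases past *psd*, had 652 per kb. In counts *CG13992*, at 1507, and *CG9044*, at 4002, were above *Vm26Ab* at 832, and *CG9044* was also above *Vm26Ac* and *psd*. The other 5 genes stand apart from each other. *Vm34Ca*, at 3817 per kb, had *CG7110* at 1001 per kb 93 bases to one side and *Flad2* at 64.2 per kb 887 bases to the other. *Vml*, at 3494 per kb, was below *Grp170* at 4125 and above *CG2865* at 790. *dec-1* stood between *Ir7b* at 11.5 and *Ir7c* at 538 per kb, and *Fcp3C* between *CG18508* at 381 and *CG3939* at 2525. Besides its host *Ca-beta*, *Vm32E* lay far from its neighbours, 15445 bases from *CG6287* at 8885 per kb and 7366 from *Boh2* at 1409. *CG6287* is outside the span of *Ca-beta* and *Boh2* is within it. Only *Grp170* among these neighbours had a higher level per kb than the gene beside it.

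**Figure D5:**
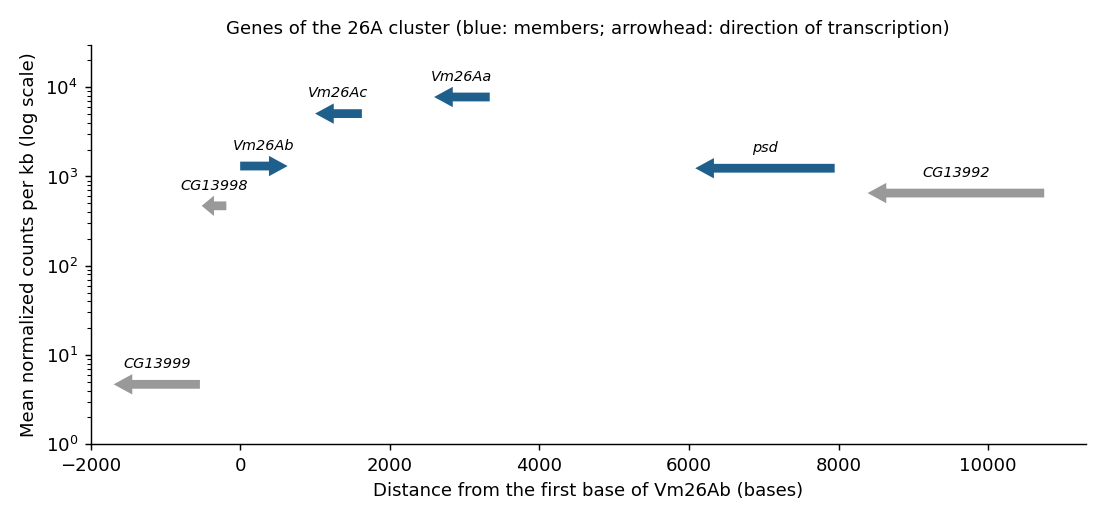
Genes of the 26A cluster by distance in bases from the first base of *Vm26Ab* and by mean normalized counts per kb (log scale); arrows give each gene's extent and direction, in blue for vitelline membrane genes and grey for neighbours. *Vm26Ab* is the only blue gene pointing right, and all 4 blue genes lie above the grey ones drawn on this per kb scale.

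Most of the genes are compact. A single exon in every annotated transcript was found in 6 of the 9, against 2131 of 13968 protein-coding genes (15.3%). The exceptions were *psd* with 1 to 2 exons, *Fcp3C* with 3 and *dec-1* with 4 to 5. The 6 genes with a single exon are also the 6 with the cysteine spacing.

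The 5 Vm proteins named by position have 116 to 181 residues (Vm32E and Vm26Ac), whereas Fcp3C has 282, Psd 381, Vml 578 and Dec-1 1590. Proline was above the median of all proteins (4.83%) in all 9 and above their 95th percentile (9.78%) in 7. Alanine was above its 95th percentile (12%) in 6, with 27.9% in Vml and 26.8% in Vm26Ab. Vm26Ac differed from its neighbours in the cluster, with 6.08% alanine and 22.7% glycine.

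Tyrosine, the residue that dityrosine bonds join in eggshells, was above its 95th percentile (6.06%) in 6 of the 9, and reached 11.1% in Vml. Dec-1 and Fcp3C, at 2.01% and 1.77% tyrosine, were below the median of 3.05%. Glutamine was above its 95th percentile (8.98%) in Dec-1 at 13.9% and in Vm32E at 10.3%. Vml stood out for serine at 26.1%. The place of the spacing differs too: its first cysteine is residue 42 in Vm32E and residue 555 in Vml.

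Promoters are shown to set genes with an exact TATAAA match near the start beside genes without one. Windows from 250 bases before to 50 after the annotated start of each gene were searched on both strands for the TATA motif (TATAAA), an initiator motif (TCAGT) and a motif of chorion promoters (TCACGT). The windows printed here run from 50 bases before the start to 20 after it, 5′ to 3′ along the gene, with the TATA and initiator motifs in capitals. They lie at chr2L:5960321-5960390 (minus) for *Vm26Aa*, chr2L:5956954-5957023 (plus) for *Vm26Ab*, chr2L:5958612-5958681 (minus) for *Vm26Ac*, chr2L:13411612-13411681 (minus) for *Vm34Ca*, chrX:7873203-7873272 (minus) for *dec-1* and chr2L:11171646-11171715 (minus) for *Vm32E*, on the Release 6 genome.
*Vm26Aa*: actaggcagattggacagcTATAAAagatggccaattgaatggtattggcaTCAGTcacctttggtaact
*Vm26Ab*: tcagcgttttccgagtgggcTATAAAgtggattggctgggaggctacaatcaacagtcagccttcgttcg
*Vm26Ac*: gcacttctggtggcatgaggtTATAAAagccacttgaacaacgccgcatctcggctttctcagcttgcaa
*Vm34Ca*: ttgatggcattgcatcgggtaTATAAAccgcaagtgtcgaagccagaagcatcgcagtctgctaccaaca
*dec-1*: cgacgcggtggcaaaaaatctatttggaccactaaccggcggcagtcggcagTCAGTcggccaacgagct
*Vm32E*: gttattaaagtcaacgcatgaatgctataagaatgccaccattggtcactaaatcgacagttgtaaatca
The TATA motif began 31 bases before the start in *Vm26Aa*, 30 in *Vm26Ab* and 29 in both *Vm26Ac* and *Vm34Ca*. Between 40 and 20 bases before the start on the gene's strand, a window chosen after the matches had been seen, it was present in these 4 of the 9 genes and in 1087 promoters (7.78%). Anywhere in the full window it was present in 5 of the 9, with a match 248 bases before the start in *psd*, against 45.8% of all promoters. *dec-1*, *Vml*, *Fcp3C* and *Vm32E*, the highest gene per kb, held no exact TATAAA match in the full window. The windows of *Vml*, *Fcp3C* and *psd* are not printed here. Near forms were not searched. The printed window of *Vm32E* holds tataag before the start, which differs from the motif in its last base.

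The initiator motif was present in 4 of the 9 genes and in 51.5% of all promoters, and began at base 2 of *Vm26Aa* and base 3 of *dec-1*, counted from the start. The chorion promoter motif was present in 2 of the 9, *Vm34Ca* and *Vml*, and in 6.75% of all promoters. A match is a description of these letters and not a site.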

How the data were processed

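Ovaries of D1 mutant and control females gave 3 RNA-seq libraries each. Per the methods, RNA was depleted of rRNA and sequenced in pairs of 150 bases, reads were cleaned with BBTools 38.18 and aligned to BDGP6.32 with STAR, counted with TEtranscripts and fitted with DESeq2 1.37.4. The signal used here, from the deposited table, is the authors' mean of normalized counts over all libraries. The table's other columns hold the authors' comparison of the genotypes (fold changes, their errors, test statistics and p-values) and were not used. The planned count tests, intervals and depths per library could not be computed from pooled means. Of 18049 entries, 9 without a name were left out.

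Levels per kb divide the mean by the longest transcript of Ensembl release 115 (BDGP6.54), on the same genome release. Lengths, translated coding sequences, motifs and shared runs were computed with Python 3.11.15, pandas 2.3.3 and Biopython 1.88. The motif search, the ranking, the cysteine spacing search, the identity measure and the merging of overlapping exons were tested on made-up input. Translation and shared runs were not tested in this way. Sequences are from the RefSeq copy of Release 6. Alternatives were other lengths, denominators and lists without their highest gene. Named were the 9 genes, their neighbours, the 3 highest genes, the extremes of each list and genes sharing runs with a member; further genes of the lists were named after their values were seen. The members and lists were chosen with earlier results of these data known.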

Additional observations from a re-analysis of the deposited data

How the results depend on the processing

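The share of the 9 genes was 0.2123% of all named entries, 0.2143% of gene entries alone and 0.0939% without *dec-1*. Their summed counts were 0.1414 times those of the chorion protein genes, 0.0912 times without the highest gene of each list and 0.0777 times per kb. With the shortest transcript as length, 6 of 9 levels were higher and 3 the same, by up to 1.58 times in *dec-1* (15093 per kb). With coding length all 9 were higher, by 1.13 to 1.76 times, the last in *Vm26Aa* (13689 per kb, then above *dec-1*). With the union of exons 8 were the same. *Vm32E* was highest per kb under each of these lengths, while *psd* and *Vm26Ab* changed places under shortest transcript and coding length. Ranks per kb were better than ranks by counts for 8 genes and worse for *dec-1*. No paired analysis was possible because the values are means over all libraries. For the same reason leaving out replicates, other normalizations and count filters were not run, and no error, depth or detection limit is given.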
